A study of Mus musculus with 16 samples.

Results

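Cycling Th2 cells of lung and mesenteric lymph node (MLN) were taken as the sorted cells with at least 1 UMI (unique molecular identifier, 1 counted transcript molecule) of *Mki67* and at least 1 of *Top2a*. *Mki67* (ENSMUSG00000031004, chromosome 7 from 135689784 to 135716361, GRCm38) encodes Ki-67, a protein of the mitotic chromosome surface, and *Top2a* (ENSMUSG00000020914, chromosome 11 from 98992943 to 99024189) encodes the topoisomerase that untangles replicated DNA. By this rule 221 of 4714 cells with a complete T cell receptor were cycling, with 80 and 30 in the lungs of mouse 1 and mouse 2 (lung 1 and lung 2) and 85 and 26 in their MLN (MLN 1 and MLN 2). The 3877 cells with no UMI of either gene are called resting here (782, 323, 2119 and 653), while 217 cells with *Mki67* only and 399 with *Top2a* only were left out of both classes. The cells were thus chosen by the measured UMIs of these 2 genes, so their levels and the difference between cycling and resting cells are a description.

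The cells came from 2 mice carrying the 4get allele on a C57BL/6 background, in which eGFP reports transcription of *Il4*. Both mice had been infected with the hookworm-like nematode *Nippostrongylus brasiliensis*, and lung and MLN of each were taken on day 10, so that lung 1 and MLN 1 are organs of the same animal. CD4+IL-4eGFP+ cells were sorted from the perfused and digested lung, purified over Percoll, and from the MLN, and their 5′ transcripts and T cell receptor (TCR) chains were sequenced from droplets. No uninfected mice were analysed here, the reporter marks cells that have opened the *Il4* locus whether or not they go on to secrete the cytokine, and a perfused lung can still hold cells from its vessels.

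T cells that meet their antigen leave quiescence, copy their DNA in S phase with the helicase, clamp and nucleotide-supplying enzymes of replication, and divide in M phase with the kinases, spindle and kinetochore proteins of mitosis. Genes of S phase are switched on by E2F factors, and many genes of G2 and M phase carry a cell cycle homology region (CHR) read by the DREAM and MuvB complexes, often next to CCAAT boxes bound by NF-Y. In type 2 responses T helper cells first divide in the lymph node, and those that reach the lung can divide again at the site.

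Promoters of 3 cell cycle genes are shown because the list genes counted in the next paragraphs fall into a replication and a mitosis group whose promoters held different letters. Each run is the 250 bases before the RefSeq start on GRCm38.p6, written 5′ to 3′ on the strand of the gene. Capitals mark TTTGAA (CHR), CCAAT and the E2F letters TTTGGCGC, TTTCGCGC or TTTCCCGC, on either strand. The lines give *Cdk1*, the kinase that starts mitosis (chr10:69352913-69353162, minus strand), *Cdc20*, the activator of the anaphase-promoting complex (chr4:118437344-118437593, minus strand), and *Mcm5*, a subunit of the replicative helicase (chr8:75109259-75109508, plus strand).
Cdk1: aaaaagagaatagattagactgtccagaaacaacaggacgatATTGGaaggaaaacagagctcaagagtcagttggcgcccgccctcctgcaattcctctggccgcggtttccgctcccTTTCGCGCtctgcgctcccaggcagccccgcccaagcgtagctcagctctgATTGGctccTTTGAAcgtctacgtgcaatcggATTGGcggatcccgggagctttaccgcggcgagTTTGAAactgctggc
Cdc20: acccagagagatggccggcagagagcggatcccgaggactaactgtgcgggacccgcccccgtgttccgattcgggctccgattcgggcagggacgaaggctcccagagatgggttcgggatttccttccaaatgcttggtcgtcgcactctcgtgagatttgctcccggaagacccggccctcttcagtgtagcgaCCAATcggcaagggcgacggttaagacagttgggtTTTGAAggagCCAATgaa
Mcm5: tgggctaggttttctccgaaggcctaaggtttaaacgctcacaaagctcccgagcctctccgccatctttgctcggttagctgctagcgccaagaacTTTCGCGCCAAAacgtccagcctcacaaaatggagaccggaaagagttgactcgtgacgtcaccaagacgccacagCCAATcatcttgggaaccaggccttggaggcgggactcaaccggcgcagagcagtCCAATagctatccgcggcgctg

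The *Cdk1* run held 2 CHR matches, 3 CCAAT boxes and 1 E2F match, the *Cdc20* run 1 CHR match and 2 CCAAT boxes, and the *Mcm5* run 2 overlapping E2F matches and 2 CCAAT boxes. The promoter set used held 44 of the 50 mitosis and 33 of the 45 replication genes, and the others were not looked at. In windows of 250 bases before and 50 bases after the start, CHR letters were found in 31 of 44 mitosis genes (70.5%) and in 5 of 33 replication genes (15.2%), next to 20.2% of 27025 genes. E2F letters were found in 13 of 33 replication genes (39.4%), in 1 of 44 mitosis genes (2.27%) and in 2.12% of all genes. The 1 mitosis gene was *Cdk1*, so the run shown above is the exception of its list in this. CCAAT boxes were common in both lists (33 of 44 and 20 of 33) and in all genes (41.1%). CHR letters and a CCAAT box in the same window were found in 61.4% of mitosis genes, 12.1% of replication genes and 7.97% of all genes. These letters are a description of the sequence, not of binding.

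A single UMI of each gene is a low bar, so the cells were checked against 45 other genes of DNA replication and 50 of mitosis, which the rule did not use. In the cycling cells a median of 1.73% of all UMIs fell on these lists (1.40%, 2.02%, 1.83% and 1.73% in lung 1, lung 2, MLN 1 and MLN 2), compared to 0.182% in resting cells, 0.209% in cells with *Mki67* only and 0.192% in cells with *Top2a* only. No resting cell of any library reached the median of the cycling cells of that library. Of the 221 cycling cells, 198 lay above the range of 99% of the resting cells of their library and 23 lay within it (12, 4, 3 and 4). Of these 23 cells 20 were among the 26 cells with exactly 1 UMI of each gene, whose median was 0.219%, while the 161 cells with at least 2 UMIs of each had a median of 2.00%. Just outside the rule, 169 cells with 1 *Mki67* UMI and no *Top2a* UMI had a median of 0.202%, and 326 cells with 1 *Top2a* UMI and no *Mki67* UMI 0.190%. The markers of both lists thus matched the label in 198 cells and not in the other 23, most of which stood at the lowest counts the rule admits.

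**Figure D1:**
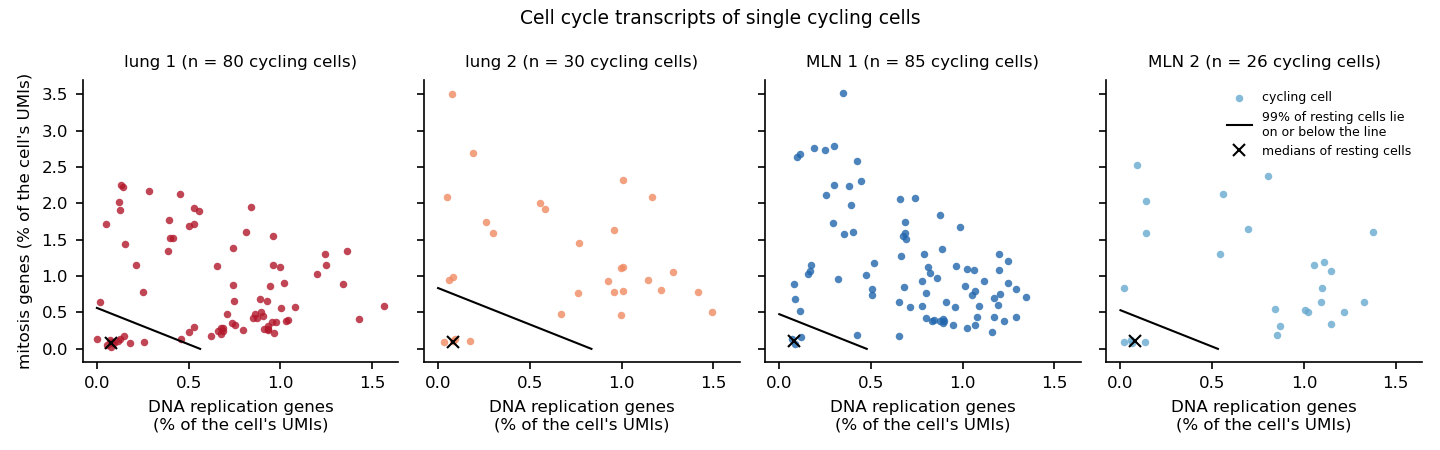
Share of the UMIs of each cycling cell on the DNA replication list (x axis) and the mitosis list (y axis), in percent, by library. Each dot is a cell, the cross marks the medians of the resting cells, and the line is the sum below which 99% of the resting cells of the library lay. Most cells spread along an arc from high replication to high mitosis shares, and 23 of 221 sit under the line.

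The cycling cells covered both phases. More UMIs fell on the mitosis than on the replication list in 33 of 80 cycling cells of lung 1, 19 of 30 of lung 2, 48 of 85 of MLN 1 and 14 of 26 of MLN 2. The plot of both shares shows cells with mostly replication transcripts, cells with mostly mitosis transcripts and cells in between in each library.

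The cycling cells were larger in transcript content. Their median UMI numbers were 15532, 11835, 16344 and 15841 in the order lung 1, lung 2, MLN 1, MLN 2, compared to 6505, 5341, 4815 and 4750 in resting cells, and 1219611, 410156, 1527339 and 419167 UMIs stood behind the summed cycling cells. A deeper cell is more likely to show a UMI of both genes, and the part of the rule in this gap was not tested. Mitochondrial shares were low in both classes, with medians of 2.59%, 2.44%, 2.35% and 2.24% in cycling and 2.89%, 2.68%, 3.35% and 3.33% in resting cells. More than 1 productive TCRβ chain or more than 2 TCRα chains, which can mark a droplet with 2 cells, were found in 3 of 80, 0 of 30, 14 of 85 and 1 of 26 cycling cells, and the share in MLN 1 (16.5%, 9.31% to 26.1%) was above that of its resting cells (6.65%, 5.63% to 7.80%). The intervals here are exact Clopper-Pearson 95% intervals and cover counting error only. Of all cells kept, 13 barcodes occurred in more than 1 library, among them 1 of a cycling cell.

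T cell genes were present throughout, with *Cd3e*, a chain of the receptor complex, at 781.5, 718.6, 760.0 and 907.5 CPM (UMIs of a gene per 1000000 UMIs of the summed cells) in lung 1, lung 2, MLN 1 and MLN 2 cycling cells. *Foxp3*, the factor of regulatory T cells, had no UMI in cycling cells of any library. Of the 2 CD8 genes *Cd8a* had none and *Cd8b1* had 4, 1, 7 and 4 UMIs, which put the list at 3.28, 2.44, 4.58 and 9.54 CPM in cycling and 10.8, 11.8, 9.81 and 6.34 CPM in resting cells. The B cell genes *Cd79a* and *Ms4a1* had no UMI. The B cell list summed to 59.9, 46.3, 133.6 and 193.2 CPM and was higher in MLN, with 4 of its 7 genes detected and 368 UMIs in all of *Ighm*, which was its most abundant gene. The myeloid list, with 11 of 12 genes detected and *Cd74* as its most abundant gene (46, 5, 91 and 37 UMIs), stood at 41.0, 97.5, 74.6 and 97.8 CPM in cycling and 57.0, 51.4, 80.6 and 183.2 CPM in resting cells. A UMI of it was found in 23.8%, 26.7%, 44.7% and 50% of cycling and 11.6%, 8.36%, 13.2% and 19.6% of the shallower resting cells. In lung 2 all 17 *Tyrobp* and 12 *Fcer1g* UMIs were each in 1 cell. The 7 exocrine pancreas genes had 23 UMIs in cycling cells of MLN 2 (54.9 CPM) and none in those of the other libraries, next to 431 UMIs (124.1 CPM) in resting cells of MLN 2, 31 in those of MLN 1 and 1 in those of lung 2. The invariant chain of NKT cells, TRAV11 with TRAJ18, was found in 2 of 85 cycling cells of MLN 1 and in none of the 80, 30 and 26 others, where a limit of 3 counts allows shares of up to 3.75%, 10.0% and 11.5%.

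Cycling cells made up 7.39% of lung 1 (5.91% to 9.12%), 7.21% of lung 2 (4.92% to 10.1%), 3.45% of MLN 1 (2.77% to 4.25%) and 3.45% of MLN 2 (2.26% to 5.01%). Both lung shares lay above both MLN shares, and the libraries of an organ differed by less than their intervals. With 2 libraries against 2 the smallest p of an exact two-sided permutation test is 0.333, so no test was made. At 2 UMIs of each gene the shares were 5.27%, 5.53%, 2.56% and 2.39%. Thinning to 2000 UMIs before the rule left 1068, 408, 2411 and 743 cells, with shares of 2.81%, 3.68%, 1.24% and 1.21%. The order of the organs was the same at this equal depth. Resting cells were deeper in the lung (above), and a smaller share of lung than of MLN cells had a complete TCR. Without the TCR criterion the shares were 5.55%, 5.93%, 3.35% and 3.34%.

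Against resting cells of the same library, the replication list summed to 6640, 7370, 7440 and 8166 CPM in cycling and 852, 993, 906 and 1011 CPM in resting cells of lung 1, lung 2, MLN 1 and MLN 2. The mitosis list had 8375, 11857, 11328 and 9569 against 899, 1172, 1116 and 1157 CPM. Histone genes, most of which are expressed with DNA replication, had 5096, 9314, 8223 and 12155 against 255, 326, 262 and 339 CPM. Every library thus carried the transcripts of both phases in its cycling cells. *Cdk1* had 143.8, 190.7, 197.7 and 150.9 CPM in cycling and 2.02, 1.07, 1.63 and 2.90 CPM in resting cells, and *Rrm2*, the subunit that makes deoxynucleotides in S phase, 441.3, 664.8, 597.7 and 716.0 against 6.06, 8.59, 3.08 and 4.64 CPM. The mitosis list had 1 exception, *Pttg1*, which encodes the separase inhibitor securin and whose log2 ratios of cycling over resting cells were -0.39, -0.35, -0.63 and -0.42. Since *Mki67* and *Top2a* select for these transcripts, the class differences are given as values.

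Outside the cell cycle lists, 3481 of 8558 genes (40.7%) passed an edgeR adjusted p of 0.05 between the classes, 1621 higher (18.9%) and 1860 lower (21.7%) in cycling cells, with a median log2 change of -0.10 over all genes tested. The rule split the cells and depth moved with it, so these calls served only to pick the genes named next, and nothing is read from their number. The 10 highest genes by the naming rule held chromatin and spindle genes that the lists had not included, among them *Pclaf*, a partner of the replication clamp (750.3, 916.6, 1006 and 953.0 CPM against 3.67, 5.91, 2.90 and 3.48), *Stmn1*, which destabilizes microtubules (777.4, 960.6, 722.5 and 818.9 against 18.7, 32.2, 14.8 and 18.8), *Spc24* and *Cenpm* of the kinetochore, the histone chaperone gene *Asf1b*, and *Fbxo5*, an inhibitor of the anaphase-promoting complex. The 10 lowest held *Btg1*, an anti-proliferative gene of quiescent lymphocytes (626.2, 503.5, 112.3 and 150.9 CPM against 1902, 1638, 738.1 and 843.7), *Mxd4*, which competes with MYC for its partner, *Slfn1*, *Ypel3*, *Socs3*, *Rflnb* and *Itm2c*.

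The sum of the MYC and ribosome assembly list was 5753, 5076, 7804 and 5821 CPM in cycling and 3521, 3396, 3627 and 3693 CPM in resting cells. The nucleotide and one-carbon list had 2266, 2187, 2760 and 2464 against 1275, 1242, 1437 and 1372 CPM, and glycolysis 9180, 9328, 12616 and 10664 against 6712, 5914, 7896 and 6693 CPM. These 3 sums were higher in the cycling cells of each library. The T cell list was lower in each, with 3594, 3255, 3530 and 3843 against 4882, 4955, 6510 and 6271 CPM. *Ran*, the GTPase of nuclear transport, stood at 950.0, 943.5, 1432 and 1202 CPM in cycling and 295.3, 289.5, 357.8 and 358.1 CPM in resting cells. The list of cell cycle brakes and quiescence genes had 3094, 3053, 1405 and 1429 CPM in cycling and 5139, 5301, 3024 and 3075 CPM in resting cells, but not all of its genes were lower. *Cdkn2c*, which encodes the CDK inhibitor p18, was higher in cycling cells of every library (92.9, 114.9, 115.6 and 117.3 against 13.6, 12.4, 15.9 and 13.3 CPM), and *Klf2*, a factor of quiescence and egress, had log2 ratios of 1.28, 1.56, 1.32 and 0.15. In MLN 2 a single cell held 8 of its 23 UMIs, and without it the 55.1 CPM became 35.9 CPM, below the 50.7 CPM of resting cells. *Il13* had 142.2, 68.4, 7.88 and 7.18 CPM in cycling and 382.0, 153.1, 10.1 and 48.4 CPM in resting cells. The values of MLN cycling cells rest on 12 and 3 UMIs. *Il4* itself had 352.6, 227.3, 379.0 and 208.3 CPM in cycling and 449.6, 400.2, 386.4 and 320.4 CPM in resting cells. In MLN 1 a single cycling cell held 193 of 577 *Il4* UMIs, and the value without it was 252.2 CPM. CPM are shares of a class, so a gene found in fewer cells and a gene at a lower level per cell cannot be told apart by them.

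The organ was no part of the rule, so lung and MLN cycling cells were compared by test, on UMIs summed over the cycling cells of each library (n = 2 per organ). Of 7064 genes tested, 603 differed (8.54%) at an edgeR adjusted p of 0.05, 458 higher (6.48%) and 145 lower (2.05%) in lung, and 1472 had an unadjusted p under 0.05. The number moved with the larger library of each organ. Without MLN 1 it was 319 and without lung 1 it was 390, and DESeq2 called 237 genes. Between resting cells of the same libraries, whose sums are deeper, 2932 of 10000 genes differed (29.3%). All gene lists in the next paragraphs were chosen with earlier results of these data known, so the direction of none is independent evidence, and their counts stand next to 6.48% of all genes called higher and 2.05% called lower. Each organ is 2 animals, so p-values measure the spread between these 2 and the fitted spread over all genes.

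Few genes of the dividing machinery differed between the organs. Of 45 replication genes 1 passed the test higher in lung (*Usp1*, the deubiquitinase of the clamp PCNA, log2 fold change 0.65, standard error 0.19, edgeR adjusted p = 0.0360), and of 50 mitosis genes 1 passed lower (*Cdc20*, 45.2, 92.9, 130.7 and 110.2 CPM in lung 1, lung 2, MLN 1 and MLN 2, -0.95, 0.28, adjusted p = 0.0421). Of the 46 *Cdc20* UMIs of MLN 2, 19 were in 1 cell, and without it MLN 2 had 64.7 CPM, below lung 2. Both shares were under the background of 8.54%. The median log2 fold changes were -0.19 and -0.05, next to 0.00 over all genes. *Cdk1* had 143.8, 190.7, 197.7 and 150.9 CPM with overlapping organs (-0.10, adjusted p = 0.840), and *Pcna*, the clamp, 331.2, 396.0, 316.6 and 361.6 CPM (0.13, adjusted p = 0.720). Of 47 histone genes 9 were lower in lung and none higher, with a median of -0.56, while the list sums of 5096, 9314, 8223 and 12155 CPM overlapped between the organs. The lowest fold change was that of *Hist1h2ah* (7.40, 14.7, 149.8 and 170.0 CPM; -4.01, 0.33, adjusted p = 9.61e-08), followed by *Hist1h2ak* and *Hist1h2an*. Single cells weighed on them, with 53 of 71 *Hist1h2ah*, 43 of 61 *Hist1h2ak* and 46 of 94 *Hist1h2an* UMIs of MLN 2 each in 1 cell. Without that cell MLN 2 had 43.1, 43.1 and 114.9 CPM, still above both lungs for each gene, and *Hist1h2ak* in MLN 1 had 57.1 CPM. These genes have near-identical copies that short reads may split among, so single members are uncertain.

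The sum of the brakes and quiescence list was higher in lung (3094 and 3053 CPM) than in MLN cycling cells (1405 and 1429 CPM). Of its 21 tested genes 11 were higher in lung, among them *Cdkn1a*, *Btg1*, *Btg2*, *Klf6*, *Klf2* and *Il7r*. Of the rest 1, *Slfn1*, was lower and the others did not pass. The median log2 fold change was 1.12 (all genes 6.48% higher, 2.05% lower). *Cdkn1a* (ENSMUSG00000023067, chromosome 17 from 29090976 to 29100727) encodes the CDK inhibitor p21. It had 181.6, 88.0, 5.91 and 0 CPM in lung 1, lung 2, MLN 1 and MLN 2, where 3 UMIs in the MLN 2 cells would have been 7.18 CPM. The organs were far apart and the fit gave 4.97 on the log2 scale (standard error 0.48, adjusted p of edgeR = 6.70e-07). *Btg2*, another anti-proliferative gene, had 506.2, 352.0, 63.7 and 59.9 CPM (2.84, 0.22, adjusted p = 5.66e-08), and *Btg1* 2.20 (0.19, 2.35e-07). *Cdkn1b*, encoding p27, had 86.3, 75.8, 55.2 and 57.5 CPM, and its log2 fold change of 0.59 did not pass (adjusted p = 0.174). In resting cells the list sum was also higher in lung (5139 and 5301 CPM) than in MLN (3024 and 3075 CPM). There 12 of 22 genes were higher and 4 lower, next to 1648 and 1284 of 10000. The cycling to resting ratio of *Cdkn1a* passed no test between the organs (-0.76, edgeR adjusted p = 0.678). Only the lung was digested, so digestion and organ cannot be told apart in any of these comparisons.

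Genes of the early response to signals had the highest median of the 16 lists, 3.17, with 17 of 20 higher in lung and none lower. Like the others, the list was picked with results of these cells known, so its direction is no independent evidence. *Junb*, an AP-1 factor (ENSMUSG00000052837, chromosome 8 from 84974484 to 84978718), had 3636, 2283, 162.9 and 110.2 CPM, with both lung libraries far above both MLN libraries (4.41, standard error 0.22, edgeR adjusted p = 1.92e-10). *Nr4a1*, a receptor gene induced by TCR signals, had 690.3, 562.2, 26.9 and 4.79 CPM (4.93, 0.29, 1.36e-09), and *Tnfaip3*, the inhibitor A20 of NF-κB, 513.6, 562.2, 23.6 and 11.97 CPM (4.73, 0.24, 1.92e-10). *Nfkbia* and *Fos* followed the same order. The lung was digested with enzymes and the MLN was not, and digestion and organ cannot be told apart here. The same list summed to 14075, 12920, 1800 and 1544 CPM in resting cells and 9524, 7563, 971 and 751 CPM in cycling cells, with the lower value in the cycling cells of each library.

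**Figure D2:**
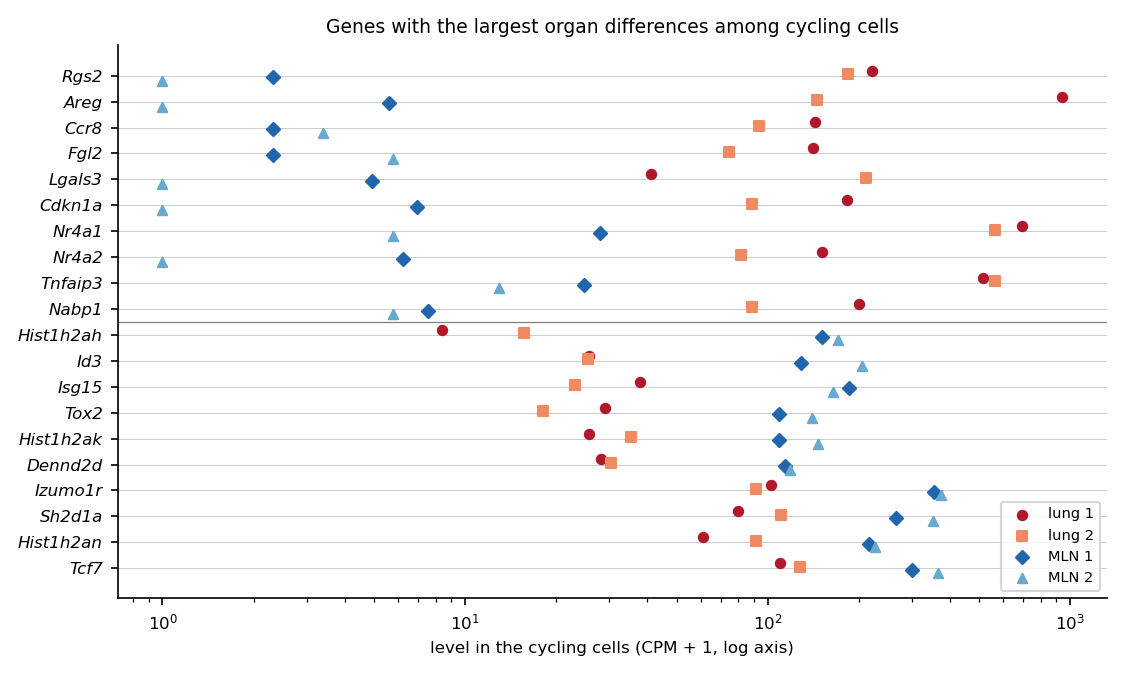
Level of the 10 genes highest in lung (above the line) and 10 highest in MLN (below it) among cycling cells, as CPM plus 1 on a log axis, 1 point per library. The lung and MLN points do not overlap in any of them, as the naming rule required, and MLN 2 had no UMI of Rgs2, Areg, Lgals3, Cdkn1a and Nr4a2.

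Among the type 2 genes, *Il4* had overlapping organs (log2 fold change 0.00, standard error 0.24, edgeR adjusted p = 0.998), with 352.6 and 227.3 CPM in lung and 379.0 and 208.3 CPM in MLN. Without the single cell of MLN 1 named above its level there was 252.2 CPM. Of 8 cytokine and mediator genes tested, 4 were higher in lung and none lower. *Il13*, the cytokine of mucus and eosinophil responses (ENSMUSG00000020383, chromosome 11 from 53631324 to 53634702), had 142.2, 68.4, 7.88 and 7.18 CPM (3.89, 0.40, adjusted p = 1.72e-06). Its MLN values are near the floor, with 12 UMIs in 3 cells of MLN 1, 8 of them in 1 cell, and 3 UMIs in MLN 2. The size of its fold change is therefore uncertain. *Areg*, the tissue repair factor amphiregulin (ENSMUSG00000029378, chromosome 5 from 91139599 to 91148432), had 938.5, 144.2, 4.60 and 0 CPM and differed between the lung libraries, where 49 of 80 cells carried its UMIs in lung 1 and 4 of 30 in lung 2, 39 of 59 UMIs in 1 of them (7.31, 0.79, adjusted p = 2.80e-06). *Calca*, the gene of calcitonin gene-related peptide, had 122 UMIs in lung and none in MLN cycling cells, at least 48.5-fold higher in lung against a floor of 3 UMIs over the MLN group, and *Csf1* was the fourth. Of 25 receptors and factors 13 were higher and none lower, with a median of 1.03. *Gata3*, the lead factor of Th2 cells, had 619.6, 440.0, 199.0 and 205.9 CPM (1.45, 0.19, 2.31e-05), *Il1rl1*, the IL-33 receptor, 238.3, 88.0, 7.23 and 11.97 CPM (4.40, 0.45, 1.44e-06), and *Icos*, a costimulator, 389.5, 396.0, 214.1 and 170.0 CPM (1.03, 0.18, 0.000532). *Rora* was higher as well (3.67). These gaps were not particular to cycling cells. Between resting cells 10 of 15 cytokine and mediator genes were higher in lung and 1 lower. Of 27 receptors and factors 20 were higher there and 1 lower, with a median of 2.09, next to 1648 of 10000 genes called higher.

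The lung effector and residence list was put together with earlier results of these libraries known, and all of its 28 tested genes were higher in lung, with a median of 2.32, so its direction is no independent evidence. *Rgs2*, a regulator of G protein signals (ENSMUSG00000026360, chromosome 1 from 143999338 to 144004161), led it with 221.1, 183.3, 1.31 and 0 CPM. Its 344 lung and 2 MLN UMIs gave a 205-fold ratio (56.4 to 1700, exact counting interval). *Ccr8*, a chemokine receptor of Th2 cells, had 142.2, 92.9, 1.31 and 2.39 CPM, from 211 lung and 3 MLN UMIs, an 83.9-fold ratio (28.3 to 410), and *Fgl2* 139.7, 73.3, 1.31 and 4.79 CPM. *Lgals3*, galectin-3, went the other way within the lung, with 40.3 CPM in lung 1 and 210.2 in lung 2, both above 3.94 and 0 in MLN. *Vim*, vimentin, had 2386, 3361, 939.9 and 653.7 CPM (1.86, 0.17, edgeR adjusted p = 3.83e-07), and *Cxcr6*, a receptor of resident T cells, 351.7, 224.9, 94.6 and 103.0 CPM (1.63, 0.22, 5.09e-05). *Nr4a2* and *Nabp1* completed the 10 highest genes. The gap of the lung effector list was not particular to cycling cells. Between resting cells 29 of its 30 tested genes were higher in lung and none lower, with a median of 2.85. Of all genes tested between resting cells, 1648 of 10000 were higher in lung. The list summed to 15617, 15006, 3647 and 3278 CPM in resting and 15268, 15760, 5559 and 4397 CPM in cycling cells.

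The list of lymph node and follicular helper T cell genes had higher sums in MLN than in lung cycling cells (1216, 1173, 2502 and 2777 CPM). In resting cells the sums were 1438, 1750.5, 5990 and 5912 CPM, above those of the cycling cells in each library. Of 24 tested genes of that list 17 were lower in lung and 2 higher, with a median of -1.40. This list too was put together with earlier results of these libraries known, so its direction is no independent evidence. *Id3*, an inhibitor of E proteins (ENSMUSG00000007872, chromosome 4 from 136143497 to 136145755), had 24.7, 24.4, 127.4 and 203.5 CPM (-2.64, standard error 0.30, edgeR adjusted p = 4.48e-06), and *Izumo1r*, folate receptor 4, 101.9, 90.4, 354.0 and 373.6 CPM (-1.86, 0.19, 1.43e-06). *Tcf7*, encoding TCF-1 of stem-like and helper T cells, had 108.5, 127.1, 299.5 and 364.0 CPM (-1.47, 0.19, 3.28e-05). *Cxcr5*, the receptor that leads to B cell follicles, had 4.93, 0, 49.9 and 114.9 CPM (-4.23, 0.58, 4.46e-05). In each of these 4 genes the organs did not overlap, and *Tox2*, *Dennd2d* and *Sh2d1a* were among the 10 lowest as well. The 2 genes that went the other way serve exit from tissue. *S1pr1*, the receptor for egress, had 65.7, 124.7, 31.5 and 33.5 CPM (1.49, 0.32, 0.00437), and *Ccr7*, the receptor that leads to lymph nodes, 110.1, 63.5, 36.1 and 19.2 CPM (1.60, 0.32, 0.00246). The B cell list, with *Ighm* as its main gene, was also higher in MLN cycling cells, and its part in these differences was not tested.

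Interferon-stimulated genes were lower in lung cycling cells for 9 of 17 tested and higher for 1, *Ly6a*, with a median of -0.99. *Isg15*, a ubiquitin-like modifier (ENSMUSG00000035692, chromosome 4 from 156199424 to 156200818), had 37.0, 22.0, 184.6 and 162.8 CPM (-2.40, standard error 0.26, edgeR adjusted p = 2.86e-06). *Ifit1* had 40 UMIs in MLN and none in lung cycling cells, at least 11.2-fold lower in lung against a floor of 3 UMIs over the lung group. In resting cells the list summed to 2455, 3206, 6160 and 3038 CPM and in cycling cells to 1841, 2265, 3382 and 3545 CPM. MLN 1 thus stood apart among resting but not among cycling cells.

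Of 14 glycolysis genes *Tpi1*, *Pgam1* and *Pkm* were lower in lung and none higher, next to 2.05% of all genes called lower. *Pkm*, pyruvate kinase, had 731.4, 769.9, 1274 and 1130 CPM (-0.65, standard error 0.13, edgeR adjusted p = 0.00329). *Ran* was the 1 of 21 genes of the MYC and ribosome assembly list that passed, *Dtymk* the 1 of 21 nucleotide genes and *Dhcr7* the 1 of 14 cholesterol genes, each lower in lung. The MYC and ribosome assembly list had a median of -0.41, with 2 of 21 log2 fold changes above 0. Of 13 apoptosis genes *Bcl2a1b*, *Bcl2a1d* and *Pmaip1* were higher, next to 6.48% of all genes. The first 2 are near-identical copies that protect lymphocytes, and *Pmaip1* encodes the pro-apoptotic NOXA. Of 7 T cell genes *Cd28* was higher (0.90) and *Lck* lower (-0.54).

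**Figure D3:**
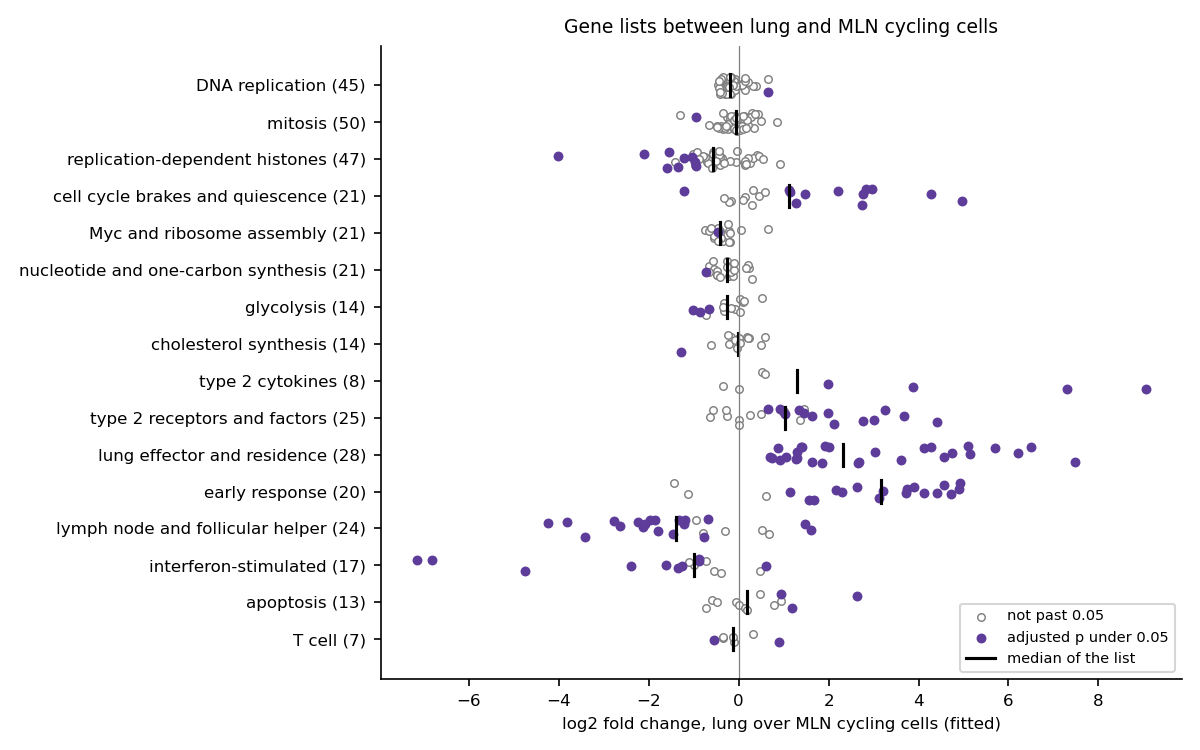
Fitted log2 fold change between lung and MLN cycling cells (x axis) of each tested gene of 16 lists, with the number of genes tested in brackets. Filled dots passed an adjusted p of 0.05, bars are list medians, and the replication and mitosis lists stay close to 0 while the early response and lung effector lists lie to the right and the lymph node and interferon lists to the left.

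Whether the difference between the classes was the same in both organs was tested by the interaction of class and organ, which the rule does not fix. Of 9358 genes 151 passed (1.61%), 36 with a higher and 115 with a lower cycling to resting ratio in lung than in MLN, and 1089 had an unadjusted p under 0.05. With DESeq2 size factors the numbers were 40 and 75, but with no filter on low counts they were 120 and 72, so the balance of directions depended on the filter. The count moved with single libraries, to 64 without MLN 1, 97 without lung 1 and 282 without lung 2. With no term for the library, cycling and resting cells of a library being treated as unpaired, 1 gene passed.

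The lung effector genes that passed had a lower ratio in lung. *Lgals1*, galectin-1 (ENSMUSG00000068220, chromosome 15 from 78926725 to 78930465), stood at 350.0 and 266.8 CPM in resting and 1647 and 1092 CPM in cycling cells of MLN 1 and MLN 2, and at 1978 and 1504 in resting and 3095 and 2515 CPM in cycling cells of the lungs. Its log2 ratios of cycling over resting cells were 0.65, 0.74, 2.23 and 2.03 in lung 1, lung 2, MLN 1 and MLN 2, a difference of -1.67 (standard error 0.13, edgeR adjusted p = 7.94e-09). *Vim* showed the same with ratios of 0.89, 1.38, 2.66 and 2.43 (-1.65, 0.16, 6.28e-07), and *Tagln2*, an actin-binding protein, with 0.61, 0.42, 1.82 and 1.52 (-1.39, 0.14, 1.77e-06). *S100a6*, a calcium-binding protein, had ratios of 0.69 and 0.65 in MLN and 0.07 and -0.29 in lung (-0.98, 0.15, 0.000460), but 61 of its 113 MLN 2 UMIs were in 1 cycling cell. Without that cell MLN 2 had 124.5 in place of 270.6 CPM, below the 173.3 CPM of its resting cells, so that its direction there turned. The lung effector genes past the threshold were 6 of 30 tested, with *Plac8* and *Ctla2a* as the others. Of all genes 1.61% passed, with a lower ratio in lung for 115 of 9358. The list was chosen with earlier results known. Against the few resting cells as deep as the cycling median the 5 genes tried did not pass, *Ctla2a* not being among them, with differences of -0.37 for *Lgals1*, -0.95 for *Vim*, -0.30 for *Tagln2*, -0.28 for *S100a6* and 0.25 for *Plac8*.

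**Figure D4:**
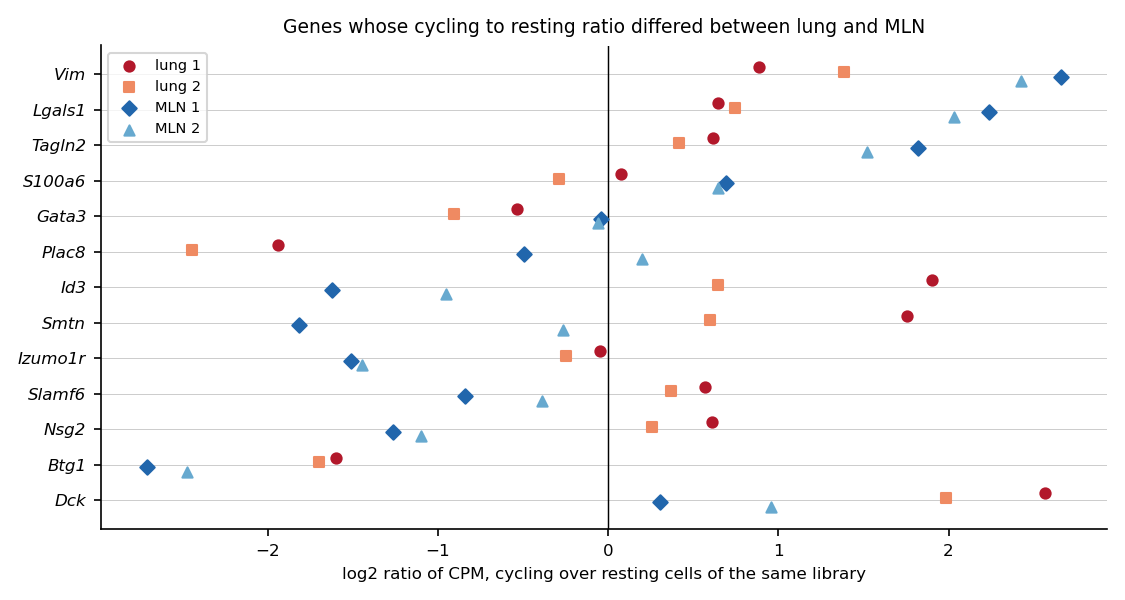
Log2 ratio of CPM in cycling over resting cells of the same library (x axis) for 13 genes that passed the interaction test, 1 point per library. Lung and MLN points are separate for each gene, with Vim, Lgals1 and Tagln2 higher in MLN and Id3, Izumo1r and Nsg2 higher in lung. The genes were chosen for passing the test, so this separation is no independent evidence.

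For the lymph node list 6 of 26 tested genes passed and had a higher ratio in lung, next to 1.61% of all genes passing in either direction. Among the 6 were *Id3*, *Izumo1r*, *Slamf6*, *Smtn* and *Btla*. *Izumo1r* had 1008 and 1023 CPM in resting and 354.0 and 373.6 CPM in cycling cells of the MLN, while the lungs had 105.7 and 108.5 in resting and 101.9 and 90.4 in cycling cells (difference of log2 ratios 1.13, standard error 0.19, edgeR adjusted p = 0.00120). *Slamf6*, an adhesion receptor of lymphocytes, had ratios of 0.57, 0.37, -0.84 and -0.39 (0.92, 0.22, 0.0274). *Gata3* had ratios of -0.53, -0.90, -0.04 and -0.06 (-0.86, 0.17, 0.00547), and *Btg1* -1.60, -1.70, -2.71 and -2.47 (0.76, 0.15, 0.00863). Against the few resting cells as deep as the cycling median the sign turned for *Izumo1r* (-0.21) and *Gata3* (0.45), and after thinning for *Slamf6* (-0.16). Among 19 genes followed in the interaction, 5 changed sign and 13 others lost the call against those deep cells. After thinning 1 changed sign and 10 others lost the call. Of the cell cycle lists 3 of 45 replication genes passed with a lower ratio in lung (*Lig1*, *Rrm2* and *Tyms*), and of 50 mitosis genes 6 with a lower (among them *Ccnb2* and *Birc5*) and 1 with a higher ratio, *Smc4*, next to 1.61% of all genes. The interferon list had none of 20.

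Cells of 1 mouse whose productive chains all shared V, J and the bases of the CDR3 were counted as a clone. The 221 cycling cells belonged to 216 clones, of which 162 were single cells and 54 had 2 or more cells. Cycling and resting cells occurred together in 46 clones, 5 clones had 2 cycling cells each and none had more. Most cycling cells were alone in their clone (162 of 221), as were most of all cells kept (3390 of 4714). Over all libraries 4.26% of the pairs of a cycling cell and a mate in the same library had a cycling mate. For resting cells it was 4.40%, so neither trait was particular to cycling cells. Among the pairs of a cycling cell and a mate in the same library, 2 of 42, 0 of 10, 2 of 39 and 0 of 3 had a cycling mate, next to 27 of 456, 10 of 102, 30 of 936 and 2 of 74 pairs for resting cells. By clone size in all libraries of the mouse, 7.71%, 7.62%, 3.58% and 3.51% of cells in clones of 1 cell were cycling, 7.51%, 4.92%, 2.39% and 2.41% in clones of 2, and 6.15%, 7.41%, 4.46% and 6.67% in clones of 3 or more. The sizes had no common order, and the last values of lung 2 and MLN 2 rest on 2 and 1 cycling cells.

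All 5 clones with 2 cycling cells came from mouse 1. Clone 1 had 11 cells, all in lung, of which 2 were cycling and 7 resting. Clone 2 had 5 cells in MLN, 2 of them cycling, and 1 in lung. Clones 3, 4 and 5 had 1 cycling cell in each organ, with 1 further resting cell in clones 3 and 4 and none in clone 5. The nucleotide CDR3 is shown for the TCRβ chains of the 3 clones that cycled in both organs and for the TCRα chains of clones 1 and 2, which share a J segment. Capitals mark bases that match neither the germline V nor the germline J end.
Clone 3, TRBV13-2 and TRBJ2-7: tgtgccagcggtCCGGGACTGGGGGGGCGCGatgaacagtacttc
Clone 4, TRBV13-2 and TRBJ1-4: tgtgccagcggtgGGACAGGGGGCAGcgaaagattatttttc
Clone 5, TRBV13-2 and TRBJ2-1: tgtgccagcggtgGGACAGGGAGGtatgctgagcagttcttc
Clone 1, TRAV14N-3 and TRAJ22: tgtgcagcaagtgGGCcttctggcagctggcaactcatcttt
Clone 2, TRAV13D-2 and TRAJ22: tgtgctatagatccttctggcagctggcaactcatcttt

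The 3 TCRβ chains use TRBV13-2 (chr6:41121396-41121832, plus strand, GRCm38) with 3 different J segments. Those of clones 4 and 5 had their first 21 bases in common, and 19, 13 and 11 bases of the 3 chains matched neither end. Germline D segments of the TCRβ locus were not compared, so these bases can include germline D bases. TRBV13-2 was used by 15.4% of all cycling cells (34 of 221, 10.9% to 20.8%) and 13.5% of resting cells (524 of 3877, 12.5% to 14.6%), so the segment was common in both classes. The TCRα chains of clones 1 and 2 join TRAV14N-3 and TRAV13D-2 to TRAJ22 (chr14:54197248-54197307, plus strand) and had their last 27 bases in common. That of clone 2 had no base outside the germline ends. The clones were picked for their 2 cycling cells, and nothing is read from these likenesses.

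The share of cells in expanded clones was compared within libraries. Of the cycling cells of lung 1, lung 2, MLN 1 and MLN 2, 35.0%, 16.7%, 27.1% and 11.5% were in clones of 2 or more cells, compared to 36.7%, 21.4%, 29.4% and 12.3% of resting cells. The mean difference was -2.37 percentage points (SD 1.69, n = 4 libraries, lower in 4 of 4), with an exact two-sided sign-flip p of 0.125, the smallest that 4 libraries can give, so the test could not reach 0.05. The 4 libraries come from 2 mice and clones were counted over both organs of a mouse, so they are not independent. With stricter contigs the difference was 0.075 points and with cells of either gene 2.43 points, so its direction depended on these choices.

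The place of the clone mates was compared next. A resting mate in the same library was found for 15.0%, 10.0%, 23.5% and 3.85% of cycling cells, and for 23.8%, 14.6%, 23.8% and 8.42% of resting cells, lower in 4 of 4 libraries, but higher in 3 of 4 with cells of either gene and in 1 of 4 by the chains with the most UMIs, by TRB chain alone, without multiplets and without the cells in the resting range. A mate in the other organ was found for 18.8%, 13.3%, 9.41% and 7.69% of cycling cells (15 of 80, 4 of 30, 8 of 85 and 2 of 26) and for 12.8%, 8.05%, 7.36% and 2.60% of resting cells, higher in 4 of 4 libraries. The mean difference was 4.60 points (SD 1.74 over 4 libraries of 2 mice), and no test was planned for it. A clone found in both organs of a mouse counts in both of its libraries, which are therefore not independent. It was positive in 4 of 4 libraries under every alternative tried but 1, the gate on either gene, where it was 0.836 points in 3 of 4. Within each library the intervals of cycling and resting cells overlapped. Of the clones with cycling cells, 3 cycled in both organs, 16 cycled in lung only and had other cells in MLN, and 6 cycled in MLN only and had other cells in lung. The MLN libraries held more cells (2462 and 754) than the lung libraries of the same mouse (1082 and 416), and the part of this in the counts was not tested.

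**Figure D5:**
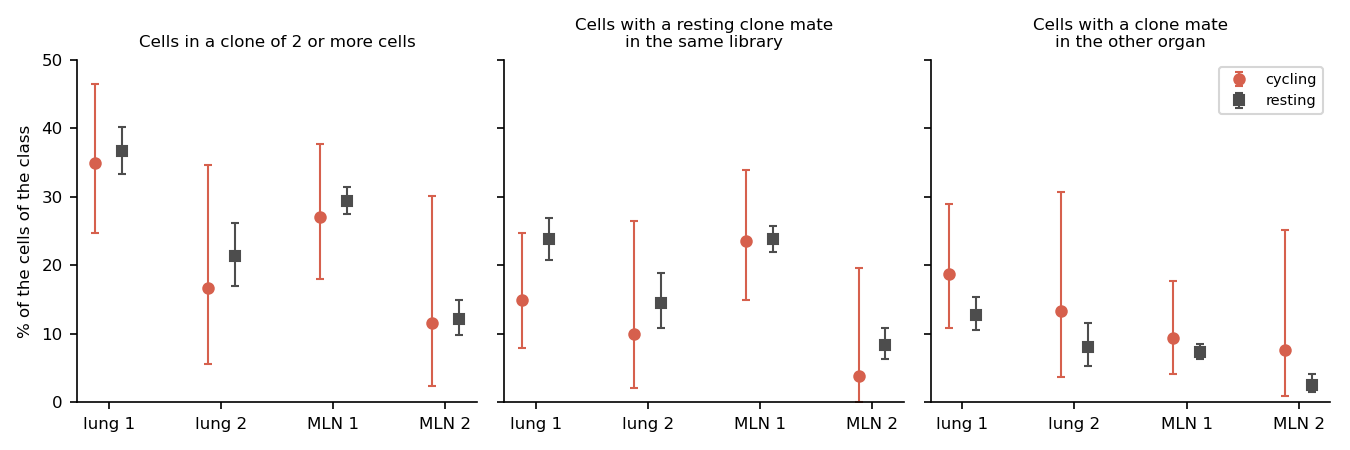
Percent of cycling (circles) and resting cells (squares) of each library in a clone of 2 or more cells, with a resting clone mate in the same library, and with a clone mate in the other organ. Bars are exact 95% Clopper-Pearson intervals, which overlap between the classes within each library, and the cycling share for the other organ is the higher one in all 4 libraries.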

How the data were processed

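Deposited counts of UMIs per gene and barcode of 4 lung and MLN libraries were used. Per the submitters' processing notes the authors made them with Cell Ranger 2.1.1 and 3.0.1 on mm10, and per the labels they combined 2 sequencing runs per library. Deposited counts of UMIs per TCR contig gave productive chains. Of 6319 barcodes, 5938 had over 500 UMIs, over 500 genes and under 7% mitochondrial UMIs, and 4714 of these a productive TRA and TRB chain. No doublet caller was run, and cells with surplus chains were left out in an alternative. The hashtag run of mediastinal nodes was not used here. UMIs were summed per library and class, without 268 TCR genes, and tested with edgeR 4.0.16 (R 4.3.3, filterByExpr, TMM, quasi-likelihood F-test, Benjamini-Hochberg over all genes). DESeq2 1.42.0 was an alternative. CPM of single genes leave out the TCR genes, and summed lists are relative to all UMIs. Class and interaction fits had library as a term. Same-numbered organs came from the same animal by the study's methods, and deviations of mouse 1 from the organ means correlated by -0.0021 over 7064 genes. Exact intervals used scipy 1.17.1. The script was tested on simulated data. Named genes were the 10 highest and 10 lowest (interaction: 5 and 5) by fold change past 0.05 with a mean of at least 50 CPM and no overlap between the organs or, between classes, 1 direction in all libraries, and members of the gene lists. Members and lists were chosen with earlier results of these data known. Leaving out the 23 cycling cells within the resting range was added after the data were seen.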

Additional observations from a re-analysis of the deposited data

Results flagged for a closer look

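For 10 genes the ratio of cycling to resting cells differed between lung and MLN by the interaction term of edgeR (log2 difference, lung minus MLN). The 5 with the higher ratio in lung were *Id3* (2.56, adjusted p = 0.000460), *Socs3*, a brake on cytokine signals (1.79, 0.0397), *Tagap* (1.56, 0.0157), *Dck*, the deoxycytidine kinase of nucleotide salvage (1.56, 0.00206), and *Nsg2* (1.48, 0.0209). *Dck* had 79.7, 114.9, 87.4 and 148.5 CPM in cycling and 13.4, 29.0, 71.0 and 77.1 CPM in resting cells of lung 1, lung 2, MLN 1 and MLN 2. The 5 with the lower ratio in lung were *Ccl1*, a chemokine (-6.02, 3.51e-06), *Gzmb*, granzyme B (-2.73, 0.000403), *Ccnb2*, a mitotic cyclin (-2.36, 0.0189), *Lgals7* (-2.25, 0.000988) and *Plac8* (-2.05, 3.19e-06). Without MLN 1 the sign turned for *Ccl1* (4.99) and *Lgals7* (0.13), and against the few resting cells as deep as the cycling median for *Dck* (-0.98), *Nsg2* (-1.10) and *Plac8* (0.25). Of the 19 genes followed through the alternatives of the interaction, 13 lost the call against those deep cells without a change of sign. The call was lost for 10 after thinning, 7 without lung 1 and 6 with cells of either gene. All 113 *Ccl1* UMIs of the MLN 1 cycling cells were in 1 cell, as were 241 of 287 *Gzmb* UMIs.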

How the results depend on the processing

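Between organs, 603 genes became 237 with DESeq2, 122 with cells thinned to 2000 UMIs and 1240 with cells of either gene, and 319 (without MLN 1) to 830 (without lung 2) when 1 library was left out. Between classes, 3481 genes became 989 after thinning and 181 against resting cells as deep as the cycling median, which left 7, 7, 4 and 3 resting cells, and 2594 to 3135 with 1 library left out. For the interaction 151 genes became 38 with DESeq2, 100 with either gene, 23 after thinning and 4 against deep resting cells, and 64 (without MLN 1) to 282 (without lung 2) with 1 library left out. With no filter on low counts it was 192, of which 120 had a higher ratio in lung. Leaving out the 23 cycling cells within the resting range, an alternative chosen after seeing the data, gave 513, 3479 and 147 genes. Which cause lay behind these changes was not tested.

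With mouse as a block, 740 genes differed between organs, all 603 among them. Without the block for the library, 1828 genes passed between classes and 1 in the interaction.

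Among the 61 genes compared between organs, 73 of 837 alternative values lost the call, 1 gained it (*Cdkn1b* with either gene) and none changed sign. Against deep resting cells the sign changed for *Dck* (-0.98), *Nsg2* (-1.10), *Plac8* (0.25), *Izumo1r* (-0.21) and *Gata3* (0.45), after thinning for *Slamf6* (-0.16), and without MLN 1 for *Ccl1* (4.99, and as low as -7.34 without MLN 2) and *Lgals7* (0.13, and as low as -2.82 without MLN 2). *Il4* between classes changed sign with either gene (0.039).

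Cycling shares with 2 UMIs of each gene were 5.27% in lung 1 and 2.56% in MLN 1. With either gene they were 27.7%, 22.4%, 13.9% and 13.4%, after thinning 2.81%, 3.68%, 1.24% and 1.21%, and without the TCR criterion 5.55% in lung 1. The expanded-clone difference was 0.075 points with stricter contigs and 2.43 with either gene, and -2.93 to -1.60 with 1 library left out. Over all libraries, a resting mate in the same library was found for 16.29% of cycling and 20.45% of resting cells in the main setting. By TRB chain alone the shares were 27.6% and 29.15%, and with either gene 23.3% and 20.45%. A mate in the other organ was found for 18.55% of cycling and 9.905% of resting cells by TRB chain alone. Depth limits lung 2 and MLN 2 most, with 30 and 26 cycling cells.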
